A study of Mus musculus with 12 samples.

Results

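The 10 genes described here encode transcription factors that mark or specify the basal and luminal cells of the mammary epithelium: Trp63, Sox9, Sox10, Elf3, Elf5, Ehf, Gata3, Foxa1, Tfap2c and Stat5a. They were taken by symbol from a table of 57180 genes, and all 10 were found, each under 1 identifier. RNA had been sequenced from aggregates of HC11 cells, a mouse mammary epithelial line, in 12 libraries that form 4 groups of 3. Control cells (genotype WT, titled scr) were sampled at 0 h (libraries 1, 2 and 3) and at 36 h (libraries 1, 3 and 4) of an in vitro migration assay, and cells with a knockdown (KD) of Snail1, the product of Snai1, at 0 h and at 36 h (libraries 1, 2 and 3 at both times). All cells were sorted and left to aggregate overnight in medium with serum, EGF and insulin before the assay. The series asks what Snail1 does in collective migration. HC11 is a single immortalized line, the labels name no clone, vector or second knockdown construct, and nothing says that libraries of the same group were grown as separate cultures, so the p-values cover the spread among these libraries, which may be technical. A control library at 36 h, number 4, carries the word "mix" in its title, without an explanation, and the deposited control 36 h mean averages libraries 1 and 3 only, whereas the means given here include library 4. Without it no factor was called at 36 h either.

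The mammary epithelium has an outer basal layer of contractile cells and an inner luminal layer that holds hormone-sensing cells and the alveolar cells that make milk. p63, encoded by Trp63, maintains basal and other stratified epithelial cells, and SOX9 and SOX10 are related HMG-box factors found in progenitor-like and basal states. GATA3 and FOXA1 act with the estrogen receptor in hormone-sensing cells, AP-2 gamma (Tfap2c) works in luminal development, and ELF5 and STAT5A drive the alveolar program downstream of prolactin. ELF3, ELF5 and EHF belong to 1 subfamily of ETS factors that is restricted to epithelia. Snail1 is a repressor that binds E-box sequences and is best known for lowering epithelial genes.

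Values are gene-level TPM (transcript abundance relative to the library total, scaled for gene length, so that levels of different genes can be set side by side). Each change is a difference of group means of log2(TPM + 1) from limma (a log2 fold change), which understates changes of low genes, with Benjamini-Hochberg adjustment over the 14426 genes that reached 1 TPM in at least 3 libraries, and a change is called at an adjusted p under 0.05. The depth of the libraries is unknown. Snai1 itself (ENSMUSG00000042821), the targeted gene, stood at 1.34, 2.51 and 1.69 TPM in control libraries 1, 2 and 3 at 0 h and at 0.58, 0.79 and 0.48 TPM in the knockdown. At 36 h it stood at 2.77, 2.69 and 3.92 TPM (libraries 1, 3 and 4) against 0.58, 0.44 and 0.20 TPM. Every knockdown value was under every control value at both times (-0.80, SE 0.227, adjusted p = 0.0348, and -1.55, SE 0.227, adjusted p = 0.0105). The call at 0 h was lost in 5 of the 12 fits that left out 1 library and at -0.54 (adjusted p = 0.158) after median-of-ratios scaling, and the call at 36 h in 3 of the 12. Without knockdown 0 h library 2 the 0 h change was -0.88 (adjusted p = 0.0245). Knockdown 0 h library 2 stood apart: mitochondrially encoded genes took 14% of its TPM against 1.45% to 6.15% elsewhere, and the median tested gene stood at 7.34 TPM against 11.2 to 18.0 TPM. It was also the library with the lowest value of all 12 for each of the 8 lineage factors that were tested. The unevenness at 0 h was not limited to it. The median correlation of a library with the others of its group was 0.906, 0.861 and 0.894 for knockdown 0 h libraries 1, 2 and 3. In the other groups it was 0.959 to 0.969. Knockdown 0 h library 3 listed 27715 genes above 0 TPM, against 20932 to 23427 in the other libraries. All 6 epithelial markers were tested (Krt14, Krt5, Krt8, Krt18, Epcam and Cdh1), with summed levels of 10063 to 10278 TPM in control at 0 h, 15897 to 18764 TPM in control at 36 h, 3325 to 10276 TPM in the knockdown at 0 h and 19472 to 25456 TPM in the knockdown at 36 h. The sum mainly follows Krt14 (7052 to 7233 TPM in control at 0 h, 12351 to 14422 TPM at 36 h), and Krt5 also rose in control. Epcam and Krt18 went the other way in control, and Krt8 and Cdh1 overlapped between the times. Epcam held 1098 to 1161 TPM in control at 0 h and 669 to 697 TPM at 36 h. In the knockdown it held 214 to 833 and 483 to 498 TPM, without overlap with control. The lowest sum was that of knockdown 0 h library 2. The part of this library's composition in the results at 0 h was not tested. The change of each factor at 0 h, and the count of each gene list, is also given without it.

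The factors covered a wide range of levels, with Sox9 first and Trp63 next in all 4 groups. In control cells at 0 h Sox9 was highest at 263 ± 18.5 TPM (SD, n = 3), higher than 95.4% of tested genes. It was followed by Trp63 at 62.3 ± 1.92 TPM and Tfap2c at 56.1 ± 8.27 TPM, whose libraries overlapped, then by Stat5a at 32.9 ± 4.57, Gata3 at 21.5 ± 1.25, Ehf at 14.7 ± 0.303, Elf3 at 12.8 ± 1.01 and Elf5 at 8.20 ± 1.14 TPM, each of these separate from its neighbours. In the knockdown at 0 h Sox9 (174 ± 22.1 TPM) again lay clear of the rest. There Trp63, Stat5a, Tfap2c and Gata3 (34.1, 19.6, 19.2 and 18.9 TPM) overlapped each with the next, as did Elf5, Ehf and Elf3 (7.92, 5.04 and 4.08 TPM). At 36 h Elf5 was the lowest of the 8 in control, at 8.36 ± 1.70 TPM and overlapping with Ehf, and Ehf the lowest in the knockdown, at 4.50 ± 0.996 TPM and overlapping with Elf3. Sox10 and Foxa1 were practically without signal. Sox10 was listed at 0 in 9 libraries and at 0.07 TPM in control 36 h library 3, knockdown 0 h library 3 and knockdown 36 h library 1. Foxa1 was listed at 0 in all 6 knockdown libraries and in control 0 h libraries 2 and 3, at 0.06 TPM in library 1 of that group, and at 0.09, 0.09 and 0.04 TPM in control 36 h libraries 1, 3 and 4. Neither passed the filter, no fold was taken, and the counts below are over the other 8 factors.

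**Figure D1:**
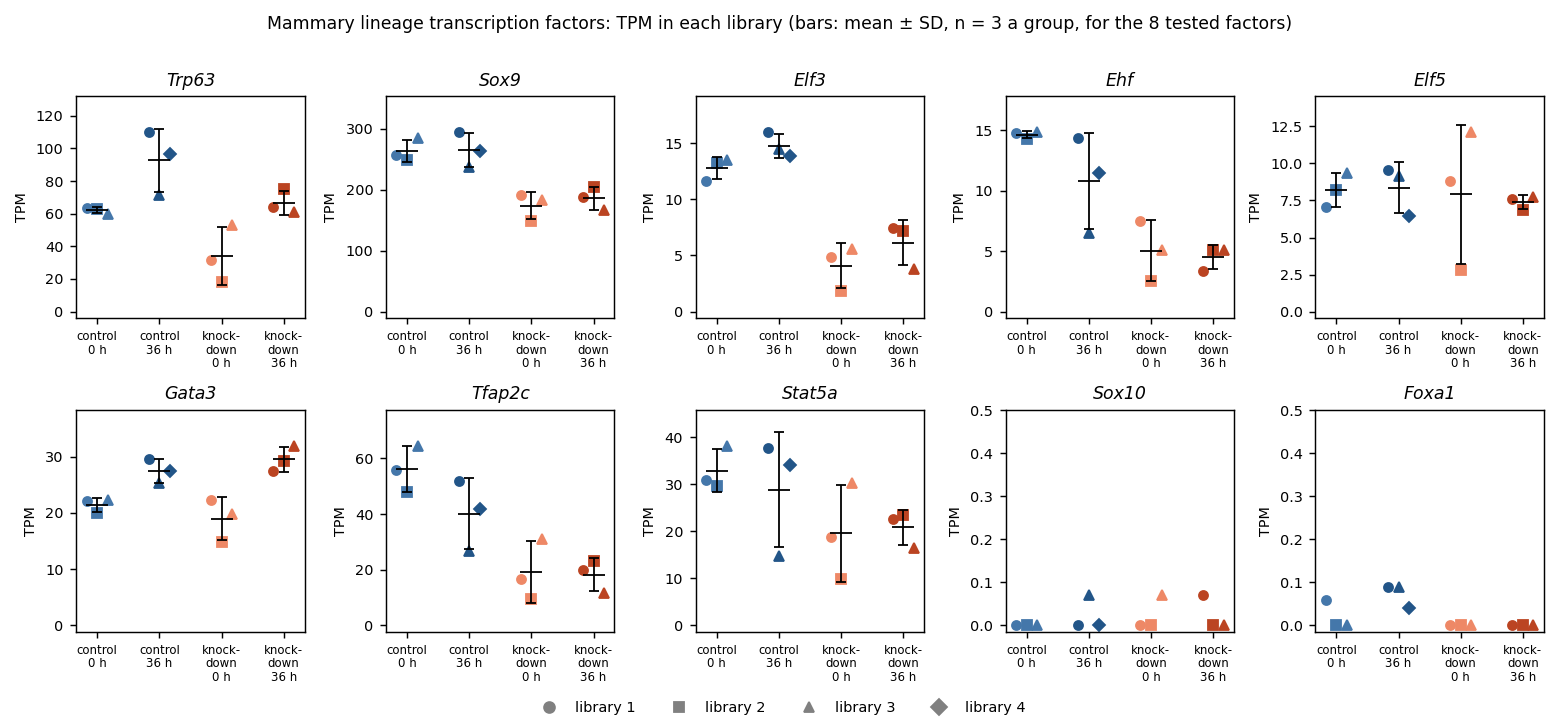
TPM (vertical axis, from 0, a scale for each gene) of the 10 factors in control and Snail1 knockdown aggregates at 0 h and 36 h; each symbol is 1 library, and bars are the mean ± SD of 3 libraries for the 8 tested factors. Elf3, Ehf, Tfap2c and Sox9 lie lower in all knockdown libraries than in the control libraries of the same time, Elf5 and Gata3 overlap, and Sox10 and Foxa1 stay at or under 0.09 TPM.

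With Snail1 knocked down, Elf3, Ehf, Tfap2c and Sox9 fell at 0 h, and no factor rose. These are 4 of 8 tested factors called lower, where 14.6% of all tested genes were called lower at 0 h and 3.1% higher. For 5 of the 8 (those 4 and Trp63) the highest knockdown library was below the lowest control library, which held for 30.7% of all tested genes. The reverse order was seen for 0 of the 8 and for 7.24% of all tested genes. The median change of the 8 was -0.91, against -0.41 over all tested genes, so part of the distance from 0 is shared with the whole table. With median-of-ratios scaling, which brings the median of all genes to -0.02, the median of the 8 was -0.46 and 4 were called lower: Elf3, Ehf, Tfap2c and Trp63 in place of Sox9. Over all genes this scaling moved the share of calls that were higher from 17.5% to 41.8%. Without knockdown 0 h library 2, 4 were called, and the number ranged from 1 to 6 with 1 library left out. It was 1 (Elf3) without any one of the 3 control 0 h libraries and 6 without knockdown 0 h library 3. The count over all genes moved alike, from 2103 called lower to between 641 and 837 without a control 0 h library and 5038 without knockdown 0 h library 3.

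At 36 h the same 4 factors were again lower in every knockdown library than in every control library, but 0 of 8 passed in limma. An order without overlap was seen for 4 of 8 (22% of all tested genes), and 4 of 8 had an unadjusted p under 0.05 (16.3% of all), whereas 2.53% of tested genes were called, 1.64% lower and 0.894% higher. The median change was -0.48, against -0.09 over all genes. Because the 4 groups share 1 estimate of the spread, this comparison also depends on the uneven libraries at 0 h: without knockdown 0 h library 2, Elf3, Ehf, Tfap2c and Sox9 were called lower at 36 h, as they were when only the 36 h groups were fitted. The calls over all genes rose too: 1701 of 14227 were lower in the first fit and 1499 of 13491 in the second, against 236 of 14426 in the main fit. With median-of-ratios scaling Elf3 alone was called (485 of 14373 genes lower). With knockdown 0 h library 2 and control 36 h library 4 both left out, Elf3 and Sox9 were (910 of 14093 genes lower). No factor passed the test of the difference between the changes of control and knockdown over time (0 of 8, 0 at an unadjusted p under 0.05, and 0% of all genes called), so a difference between the knockdown effects at 0 h and at 36 h was not shown for any of them.

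**Figure D2:**
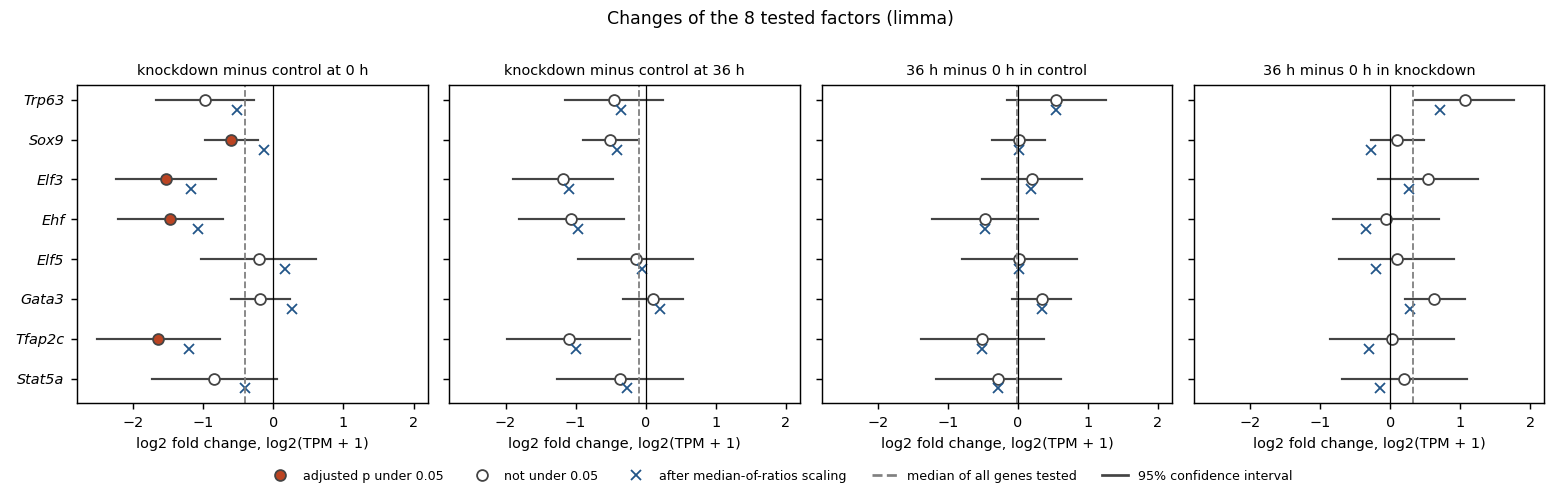
Log2 fold change on the log2(TPM + 1) scale (horizontal axis) of the 8 tested factors in 4 comparisons, with 95% confidence intervals; red points passed limma at an adjusted p under 0.05, crosses show the value after median-of-ratios scaling and the dashed line the median of all tested genes. Elf3, Ehf and Tfap2c lie farthest to the left in both knockdown comparisons, between -1.64 and -1.06, and their crosses stay below the dashed line.

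Among the basal and progenitor factors, Trp63 (ENSMUSG00000022510) stood at 63.7, 63.1 and 60.1 TPM in control libraries 1, 2 and 3 at 0 h and at 31.4, 18.2 and 52.8 TPM in the knockdown. The 3 control libraries lay within 4 TPM of each other, and all knockdown libraries were lower and widely spread. The change of -0.97 (SE 0.320, 95% interval -1.68 to -0.27) missed the threshold, with an adjusted p of 0.0560. It was -0.60 without knockdown 0 h library 2 (adjusted p = 0.0764), -1.34 and called without library 3 of that group (adjusted p = 0.0055), and, scaled by median of ratios, -0.52 and called (adjusted p = 0.0450). At 36 h Trp63 stood at 110, 71.6 and 96.4 TPM in control libraries 1, 3 and 4 and at 64.2, 75.0 and 61.0 TPM in the knockdown, where the groups overlapped through control library 3 (-0.45, SE 0.320, adjusted p = 0.573). The table gives 1 value for Trp63, so its long (TA) and short (ΔN) forms cannot be told apart.

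Sox9 (ENSMUSG00000000567) was the most abundant of the 10 factors in every group. It stood at 257, 249 and 284 TPM in control at 0 h and at 191, 149 and 182 TPM in the knockdown, 66.1% of control, with no overlap (-0.60, SE 0.173, adjusted p = 0.0364). The 36 h values were 294, 238 and 264 TPM (libraries 1, 3 and 4) against 188, 204 and 166 TPM, 70.0% of control and again with no overlap (-0.51, SE 0.173, adjusted p = 0.156). The call at 0 h is the least firm of the 4: it was held in 4 of 12 fits with 1 library left out, and after median-of-ratios scaling the change was -0.14 (adjusted p = 0.579). At 36 h scaling moved the value less, to -0.41 (adjusted p = 0.194). Without knockdown 0 h library 2 the changes were -0.49 (adjusted p = 0.0134) and -0.51 (adjusted p = 0.00817). For Sox10 (ENSMUSG00000033006), the relative of Sox9, the low values gave nothing to compare. Of 5 markers of Schwann cells, a neural crest cell type in which Sox10 is high, Foxd3 was listed at 0 in every library and Mbp reached at most 3.21 TPM, while S100b stood between 8.04 and 15.0 TPM. Their summed level ranged from 13.6 to 18.1 TPM in control at 0 h, 14.2 to 17 TPM in control at 36 h, 10.2 to 12.8 TPM in the knockdown at 0 h and 9.91 to 11.1 TPM in the knockdown at 36 h.

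In the ETS group Elf3 and Ehf were lower in the knockdown, and Elf5 was not separated by it. Elf3 (ENSMUSG00000003051), which controls differentiation genes of secretory and stratified epithelia, stood at 11.6, 13.2 and 13.5 TPM in control at 0 h and at 4.85, 1.80 and 5.59 TPM in the knockdown. All 3 knockdown libraries were under 6 TPM and all 3 control libraries over 11 TPM. Elf3 fell to 31.9% of control (-1.53, SE 0.324, 95% interval -2.24 to -0.82, adjusted p = 0.0118). The call held in all 12 fits with 1 library left out (-1.76 to -1.15, the latter without knockdown 0 h library 2) and after median-of-ratios scaling (-1.17, adjusted p = 0.00787), but not when the 0 h groups were fitted alone (adjusted p = 0.0944). At 36 h it stood at 16.0, 14.5 and 13.9 TPM in control libraries 1, 3 and 4 and at 7.41, 7.21 and 3.82 TPM in the knockdown, 41.6% of control (-1.18, SE 0.324, adjusted p = 0.0837). That change passed after median-of-ratios scaling (-1.09, adjusted p = 0.0239) and without knockdown 0 h library 2 (-1.18, adjusted p = 0.00422).

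Ehf (ENSMUSG00000012350), a close relative of Elf3 in epithelial differentiation, stood at 14.8, 14.3 and 14.8 TPM in control at 0 h, the tightest group of the 8 factors, and at 7.53, 2.52 and 5.06 TPM in the knockdown. It fell to 34.4% of control (-1.47, SE 0.341, 95% interval -2.21 to -0.72, adjusted p = 0.0171). Leaving out control 0 h library 1, 2 or 3 ended the call (adjusted p = 0.0624, 0.0542 and 0.0571). The call held with median-of-ratios scaling (-1.08, adjusted p = 0.0174) and without knockdown 0 h library 2 (-1.12, adjusted p = 0.0209). At 36 h control libraries 1, 3 and 4 held 14.4, 6.54 and 11.5 TPM and knockdown libraries 3.35, 5.08 and 5.07 TPM. Control library 3 was less than 2 TPM above the highest knockdown library (-1.06, SE 0.341, adjusted p = 0.137), and without it the change was -1.35 (adjusted p = 0.0824).

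Elf5 (ENSMUSG00000027186), a regulator of alveolar cells, stood at 7.06, 8.19 and 9.34 TPM in control at 0 h and at 8.81, 2.84 and 12.1 TPM in the knockdown. Knockdown libraries lay both below and above the control range (-0.21, SE 0.374, 95% interval -1.03 to 0.61, adjusted p = 0.685). The direction turned with median-of-ratios scaling (0.17, adjusted p = 0.658) and without knockdown 0 h library 2 (0.31, adjusted p = 0.309). At 36 h it stood at 9.55, 9.12 and 6.42 TPM in control libraries 1, 3 and 4 and at 7.58, 6.87 and 7.75 TPM in the knockdown (-0.14, SE 0.374, 95% interval -0.96 to 0.68, adjusted p = 0.925). Both intervals include a change of the size measured for Sox9, so the values do not show that Elf5 stayed at its level.

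The ratio of 2 genes within a library does not depend on how libraries are scaled to each other, and it was taken after the values were seen. The ratio of Elf3 to Elf5 TPM was 1.45 to 1.65 in control and 0.462 to 0.634 in the knockdown at 0 h, including 0.634 in knockdown 0 h library 2, and 1.59 to 2.16 against 0.493 to 1.05 at 36 h. The groups did not overlap at either time, and the 2-sided exact permutation p was 0.1 at each, the smallest that 3 libraries against 3 can give. The ratio of Ehf to Elf5 was 1.59 to 2.10 against 0.418 to 0.887 at 0 h (exact permutation p = 0.1), also without overlap. At 36 h it was 0.717 to 1.79 against 0.442 to 0.739, where control library 3 fell inside the knockdown range (exact permutation p = 0.2).

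Snail proteins are known to bind an E-box with the letters CACCTG, which was searched on both strands and overlaps no other motif searched here. RefSeq promoter sequence (GRCm38.p6, whereas the submitters' notes name GRCm39) was at hand for 5 of the 10 factors, with 7 transcription starts. In the 250 bases before the start, the E-box occurred at 4 of these 7 starts, of Elf3, Elf5, Stat5a and Foxa1, and at 17.2% of all 32851 RefSeq starts. The stretches before the Elf3 start (chr1:135258473-135258722, minus strand), a factor that fell, and before the upstream of 2 Elf5 starts (chr2:103411848-103412097, plus strand), a factor that was not called, are given 5′ to 3′ with the E-box in capitals.
Elf3: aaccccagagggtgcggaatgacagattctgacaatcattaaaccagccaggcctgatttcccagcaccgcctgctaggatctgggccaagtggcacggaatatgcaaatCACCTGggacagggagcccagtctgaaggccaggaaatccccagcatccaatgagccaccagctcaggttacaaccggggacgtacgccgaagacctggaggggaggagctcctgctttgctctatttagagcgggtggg
Elf5: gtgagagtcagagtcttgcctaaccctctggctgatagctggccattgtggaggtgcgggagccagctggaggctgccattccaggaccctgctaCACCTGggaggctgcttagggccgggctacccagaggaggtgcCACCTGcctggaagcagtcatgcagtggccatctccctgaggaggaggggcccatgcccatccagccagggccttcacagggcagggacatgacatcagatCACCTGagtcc
The Elf5 start shown was not found near a 5′ end of the gene's GENCODE transcripts for the same build, as the other 6 starts were. The Elf3 stretch held the letters 1 time, with their first base at -140 from the start, and the Elf5 stretch 3 times, at -155, -112 and -11. The other Elf5 start and the Gata3 start held none, and 1 of 2 Stat5a starts held them at -62. These matches describe letters only. No binding was measured.

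Among the luminal factors Tfap2c (ENSMUSG00000028640) had the change farthest from 0 of the 8 tested factors at 0 h. It stood at 55.9, 47.9 and 64.4 TPM in control and at 16.7, 9.54 and 31.2 TPM in the knockdown, 34.1% of control (-1.64, SE 0.402, 95% interval -2.52 to -0.76, adjusted p = 0.0206). The call held with median-of-ratios scaling (-1.20, adjusted p = 0.0134) and without knockdown 0 h library 2 (-1.25, adjusted p = 0.0289), and ended on leaving out control 0 h library 1, 2 or 3 (adjusted p = 0.0699, 0.0517 and 0.0733). At 36 h it stood at 51.8, 26.7 and 42.0 TPM in control libraries 1, 3 and 4 and at 19.95, 23.08 and 11.56 TPM in the knockdown. Again no libraries overlapped, with control library 3 nearest to the knockdown (-1.10, SE 0.402, adjusted p = 0.187).

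Stat5a (ENSMUSG00000004043), the transducer of prolactin signals, stood at 30.8, 29.7 and 38.1 TPM in control at 0 h and at 18.7, 9.77 and 30.2 TPM in the knockdown, where library 3 reached into the control range (-0.84, SE 0.407, 95% interval -1.73 to 0.05, adjusted p = 0.152). The value rested on single libraries: it was -0.44 without knockdown 0 h library 2 (adjusted p = 0.401) and -1.21, and called, without library 3 of that group (adjusted p = 0.0325). Scaled by median of ratios it was -0.40 (adjusted p = 0.307). At 36 h control libraries 1 and 4 held 37.6 and 34.2 TPM, but control library 3 held 14.8 TPM, less than any of the 3 knockdown libraries (22.6, 23.4 and 16.5 TPM). The change was -0.36 (SE 0.407, adjusted p = 0.766), and -0.77 without control library 3 (adjusted p = 0.355). Control 36 h library 3 was also the lowest of its group for Ehf, Tfap2c, Trp63, Sox9 and Gata3, but held 2.69 TPM of Snai1, close to the 2.77 TPM of library 1. Stat5a has a near copy, Stat5b, beside it in the genome, and how reads that match both were counted is not given in the sources used here, so both levels are uncertain. Stat5b stood at 16.8 ± 1.42 TPM in control, against 11.6 ± 8.56 TPM after knockdown, at 0 h (-0.72, SE 0.438, adjusted p = 0.241).

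Gata3 (ENSMUSG00000015619), needed for luminal cell fate, was the factor least separated by the knockdown beside Elf5. It stood at 22.0, 20 and 22.3 TPM in control at 0 h and at 22.3, 14.8 and 19.8 TPM with Snail1 knocked down (-0.19, SE 0.194, 95% interval -0.61 to 0.24, adjusted p = 0.476), and the sign turned after median-of-ratios scaling (0.26, adjusted p = 0.261). Without knockdown 0 h library 2 it was -0.03 (adjusted p = 0.890). The interval at 0 h includes the change of -0.60 measured for Sox9, so these values do not show that Gata3 stayed at its level. At 36 h it stood at 29.5, 25.3 and 27.5 TPM in control libraries 1, 3 and 4 and at 27.5, 29.3 and 31.9 TPM in the knockdown (0.10, SE 0.194, 95% interval -0.32 to 0.53, adjusted p = 0.883). Its partner Foxa1 (ENSMUSG00000035451) was at or near 0 throughout, as described above, and of the steroid receptors that work with them Pgr did not pass the filter.

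**Figure D3:**
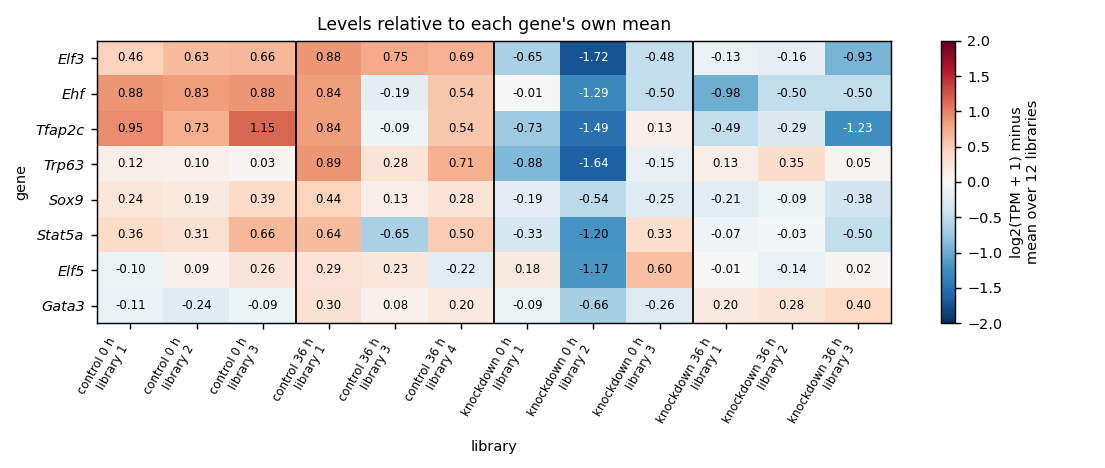
Level of the 8 tested factors (rows) in the 12 libraries (columns, grouped by condition), as log2(TPM + 1) minus the gene's mean over the 12 libraries; red is above and blue below that mean. Knockdown 0 h library 2 is the bluest column in every row, from -1.72 for Elf3 to -0.54 for Sox9, and Elf3 is above its mean in all 6 control libraries and below it in all 6 knockdown libraries.

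Over the 36 h of migration no factor was called in control or in the knockdown (0 of 8 each in limma, with 0 and 2 of 8 at an unadjusted p under 0.05, where 0.36% and 1.12% of all tested genes were called, 0.25% and 0.998% higher and 0.111% and 0.125% lower, and 5.57% and 16.4% had such a p). Elf3, Gata3 and Trp63 were higher in all 36 h libraries than in all 0 h libraries of control, an order that 9.55% of tested genes showed, and Gata3 and Trp63 in the knockdown, as 15% did. No factor was lower in all 36 h libraries, an order that 12.3% of tested genes showed in control and 3.91% in the knockdown. Trp63 went from 62.3 ± 1.92 to 92.6 ± 19.4 TPM in control (0.54, SE 0.320, adjusted p = 1) and from 34.1 ± 17.5 to 66.7 ± 7.38 TPM in the knockdown (1.07, SE 0.320, 95% interval 0.36 to 1.77, adjusted p = 0.171). Without knockdown 0 h library 2 the latter was 0.69 (adjusted p = 0.148), and without library 3 of that group it was called (1.44, adjusted p = 0.0225). The change of Gata3 was 0.34 in control (adjusted p = 1) and 0.63 in the knockdown (SE 0.194, adjusted p = 0.179), and 0.28 when scaled by median of ratios (adjusted p = 0.352). The median of all genes moved by 0.33 in the knockdown over the same time and by -0.01 in control. The remaining factors had changes between -0.51 (Tfap2c, control) and 0.54 (Elf3, knockdown), none called.

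Genes that act around these factors were read from 6 lists written from textbook knowledge. The lists overlap: Krt5, Krt14 and Cdh3 are p63 targets and basal products, and Stat5b is a regulator and a STAT5 pathway gene. At 0 h 14.6% of all tested genes were called lower and 3.1% higher. Called lower there were 1570 of 14373 genes with median-of-ratios scaling and 2396 of 14227 without knockdown 0 h library 2. With 1 library left out, 641 to 5038 genes were called lower. Among 34 other regulators of mammary or epithelial identity, 31 were tested. At 0 h 11 were called lower in the knockdown and 0 higher (7 and 0 with median-of-ratios scaling, 13 and 0 without knockdown 0 h library 2, and 2 to 18 lower with 1 library left out). The median of the 31 was -0.71. Those called included the epithelial factors Grhl3 (7.20 ± 0.196 against 1.36 ± 1.09 TPM, -1.90, adjusted p = 0.00359) and Ovol1 (-1.24, adjusted p = 0.0150), the inhibitor Id4 (-0.93, adjusted p = 0.0133) and Tbx3 (-1.42, adjusted p = 0.0162). At 36 h and over time the called member was Id2, an inhibitor of helix-loop-helix factors, which rose from 43.1 ± 3.71 to 167 ± 13.6 TPM in control (1.92, adjusted p = 5.58e-04). It rose from 30.8 ± 1.84 to 358 ± 39.1 TPM in the knockdown (3.49, adjusted p = 1.52e-06) and was higher in the knockdown at 36 h (1.10, adjusted p = 0.0137). Over all tested genes, 0.894% were called higher in the knockdown at 36 h. Over time 0.25% were called higher in control and 0.998% in the knockdown. The changes of Id2 over time differed by 1.57 between knockdown and control (SE 0.240, adjusted p = 0.127). No regulator was called for this difference in the main fit. Without knockdown 0 h library 2, 1 regulator was called higher, and 10 genes were called over all tested genes.

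Of 20 tested genes known as p63 targets, 8 were called lower at 0 h and 0 higher (6 and 0 with scaling, 5 and 0 without knockdown 0 h library 2, and 2 to 15 lower with 1 library left out). The median of the 20 was -1.01, and 14.6% of all tested genes were called lower at 0 h. Among those called were Cdh3 (P-cadherin, -1.62, adjusted p = 0.00706), Bdkrb2 (-1.68, adjusted p = 0.0108) and Col17a1 of hemidesmosomes (-1.62, adjusted p = 0.0206). Between 0 h and 36 h 5 were called higher in the knockdown (5 with scaling, 5 without knockdown 0 h library 2, and 1 to 12 with 1 library left out). The median was 1.14 there and 0.52 in control, where 1 was called. Of all tested genes, 0.998% were called higher over time in the knockdown and 0.25% in control. The comparison over time shares the knockdown 0 h libraries with that at 0 h, and the medians of all genes were 0.33 and -0.41. Krt5, a basal keratin, rose from 1272 ± 108 to 2821 ± 302 TPM in control (1.15, adjusted p = 0.0231) and from 1017 ± 230 to 3207 ± 304 TPM in the knockdown (1.68, adjusted p = 0.00108). The basal keratin Krt14 rose in the knockdown (1.88, adjusted p = 0.0412), as did Fgfr3 (1.59, adjusted p = 0.0231) and Nrg1 (1.78, adjusted p = 0.0089). No p63 target was called at 36 h between knockdown and control (median -0.50).

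Of the STAT5 pathway 14 of 16 genes were tested. At 0 h 4 were called lower and 0 higher (2 and 0 with scaling, 3 and 0 without knockdown 0 h library 2, and 1 to 10 lower with 1 library left out). They were the feedback inhibitors Socs2 (57.2 ± 3.38 against 27.7 ± 9.91 TPM, -1.08, adjusted p = 0.0137) and Socs3 (-1.35, adjusted p = 0.0394), Pias3 (-0.80, adjusted p = 0.0216) and the prolactin receptor Prlr (-0.95, adjusted p = 0.0418). The median of the 14 was -0.74. Of all tested genes 14.6% were called lower at 0 h, and 1570 of 14373 with scaling. None was called in the other comparisons. Cish, a classical STAT5 target, had -0.45 at 0 h (adjusted p = 0.330). Of 14 milk genes only 5 were tested. The caseins Csn1s1, Csn1s2a, Csn1s2b, Csn2 and Csn3, and Wap, Lalba, Glycam1 and Cel, were below the filter. At 0 h Ltf (lactoferrin, -1.56, adjusted p = 0.0115), Mfge8 (-1.49, adjusted p = 0.0185) and Xdh (-0.98, adjusted p = 0.0146) fell and 0 rose (2 lower with scaling, 4 without knockdown 0 h library 2, and 1 to 4 with 1 library left out). Btn1a1, which helps to release milk fat, was higher in the knockdown at 36 h (17.5 ± 3.62 against 6.32 ± 1.35 TPM, 1.33, adjusted p = 0.0307) and rose there over time (1.91, adjusted p = 0.00669). Ltf fell over time in control (-1.89, adjusted p = 0.0342). Over all tested genes, 0.894% were called higher at 36 h and 0.998% higher over time in the knockdown. In control 0.111% were called lower over time.

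Among structural products of the luminal and basal layers, genes of both were called lower at 0 h, and a difference between the lists was not tested. Of all tested genes 14.6% were called lower there, and 1570 of 14373 with scaling. Of 14 tested luminal products 5 were lower and 0 higher (2 and 0 with scaling, 6 and 0 without knockdown 0 h library 2, and 1 to 8 lower with 1 library left out). The median was -0.72, and Areg (amphiregulin, -1.12, adjusted p = 0.0108), Cldn3 (-1.38, adjusted p = 0.0297), Krt7 (-1.28, adjusted p = 0.0364) and Cldn4 (-0.76, adjusted p = 0.0465) were among those called. Of 10 tested basal products 4 were lower and 0 higher (4 and 0 with scaling, 5 and 1 without knockdown 0 h library 2, and 2 to 5 lower with 1 library left out). The median was -0.72, and those called were Cdh3, Vim (-1.09, adjusted p = 0.0108), Sparc (-1.31, adjusted p = 0.0112) and Krt15 (-0.89, adjusted p = 0.0244). The contractile basal genes Acta2, Myh11, Cnn1 and Mylk were below the filter. At 36 h Vim (-1.08, adjusted p = 0.0334) and Sparc (-1.17, adjusted p = 0.0483) were lower and no luminal product was called. Over time Krt15 rose in control (2.05, adjusted p = 0.0043) and in the knockdown (2.31, adjusted p = 4.86e-04), together with Krt5, and of the luminal list Cd24a (1.51, adjusted p = 0.00603) and Areg (1.15, adjusted p = 0.0412) rose in the knockdown. The shares of all tested genes called higher over time were 0.25% in control and 0.998% in the knockdown. At 36 h the counts of the lists depended on knockdown 0 h library 2: without it 10 regulators, 3 p63 targets, 2 STAT5 pathway genes, 2 milk genes, 3 luminal products and 4 basal products were called lower and 1, 1, 0, 1, 1 and 3 higher. Over all genes 1701 of 14227 were called lower in that fit and 998 higher, against 236 and 129 of 14426 in the main fit. With 1 library left out, 0 to 4 basal products were called lower at 36 h. Called higher were 0 to 1 regulators and 0 to 1 milk genes. All values at 0 h stand beside the shift of -0.41 in the median of all genes.

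**Figure D4:**
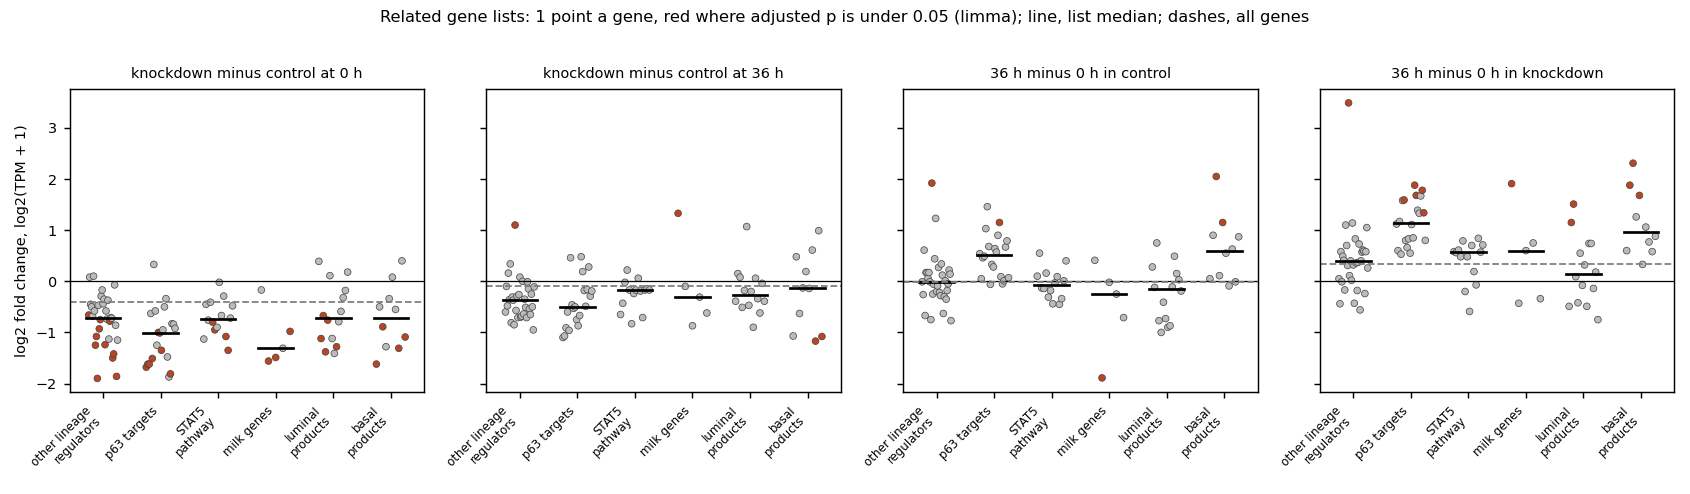
Log2 fold change on the log2(TPM + 1) scale (vertical axis) of the tested genes of 6 related lists in 4 comparisons, 1 point a gene; red points passed limma at an adjusted p under 0.05, black lines are list medians and dashed lines the median of all tested genes. At 0 h the list medians lie between -1.31 and -0.71, below the -0.41 of all genes, and over time in the knockdown the p63 targets (1.14) and basal products (0.97) lie above the 0.33 of all genes. The p63 targets and basal products share Krt5, Krt14 and Cdh3.

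The genes whose profiles over the 12 libraries lay closest to the called factors were found by the root-mean-square difference of log2(TPM + 1), each gene centred on its own mean, among 9086 named protein-coding genes whose mean over the libraries reached 5 TPM. The libraries share their group and their composition, so closeness is a description. For Elf3 these included Rad54l (0.18) and Ier5l (0.18), against a spread of Elf3 itself of 0.78. For Ehf they were Cela1 (0.22), Btg1 (0.22) and Grn (0.24), with a spread of 0.74, and for Tfap2c Axl (a receptor kinase, 0.16), Oaf (0.17) and Ctnna1 (alpha-catenin, 0.18), with a spread of 0.84. Sox9, whose own spread was 0.31, had Det1 (0.10), Gmppa (0.10) and Eif3c (0.11). Among the 8 factors themselves, Ehf and Tfap2c were each other's nearest (0.39), Tfap2c was the nearest of Elf3 (0.40), and Gata3 was the farthest from Elf3, Ehf, Tfap2c and Stat5a (0.54 to 0.86).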

How the data were processed

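Stranded mRNA libraries were sequenced, and per the submitters' processing notes the build was GRCm39 and the tools were HISAT2 2.2.1, cutadapt 1.9.1, HTSeq, FastQC and DESeq2. The tool behind the TPM is not given in the sources used here. The deposited table holds TPM per gene from the authors, with the same sum in every library, with gene lengths and group means that were not used as measurements, nor was 1 further column that repeats a library. TPM keeps no depth, so no counting error can be given and no count model was used. Whether counting used the strand is not stated, so reads of overlapping antisense genes could not be separated.

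Here log2(TPM + 1) was fitted in limma 3.58.1 (R 4.3.3) with 1 mean per group over all 12 libraries and a trend in the variance, for the 14426 genes that reached 1 TPM in 3 or more libraries. P-values are from 2-sided tests, adjusted by Benjamini-Hochberg over all genes of a comparison. The script was tested on simulated data. Ratios were compared by exact permutation (scipy 1.17.1). The 10 factors and the lists were chosen with earlier results of these data known. All 10 factors and Snai1 were named, up to 4 called genes with the lowest adjusted p per list and comparison, and the 3 nearest profiles of each called factor; genes and ratios outside this rule were chosen after their values were seen, and a few genes that it names are not reported here. Each result was recomputed with median-of-ratios scaling, without the filter or with 1 of 5 TPM, with a pseudocount of 0.1, with a replicate block (with and without scaling), with only the groups compared, and without each library in turn. The fits without knockdown 0 h library 2 and control 36 h library 3 or 4 were added after seeing the data. Of the markers of other cells, summed levels lay between 3.58 and 23.0 TPM for fibroblasts (3 of 6 tested), 3.83 and 16.1 TPM for immune cells (2 of 6), 0.49 and 7.07 TPM for endothelium (1 of 5) and 0 and 0.27 TPM for adipocytes (0 of 4), and Adipoq, Lep and Dpt were listed at 0 in every library.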

Additional observations from a re-analysis of the deposited data

How the results depend on the processing

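At 0 h the number of factors called between knockdown and control, 4 in the main analysis, was 2 with no filter, 1 with the replicate block, 2 with the block and median-of-ratios scaling, 0 with only the groups compared, and 1 to 6 with 1 library left out. At 36 h, where the main number was 0, it was 1 with median-of-ratios scaling, 4 with only the groups compared, 0 to 4 with 1 library left out, and 2 and 6 without knockdown 0 h library 2 and control 36 h library 4 or 3. Over time in the knockdown it was 0 to 1 with 1 library left out. Over all genes, the 2550 called at 0 h became 1258 with no filter, 1011 with the replicate block, 1395 with the block and scaling, 89 with only the groups compared and, with 1 library left out, 755 (control 0 h library 1) to 5869 (knockdown 0 h library 3). The 365 at 36 h became 192 with no filter, 813 with scaling, 5 with the replicate block, 31 with the block and scaling, 2377 with only the groups compared, 24 (control 36 h library 4 left out) to 2699 (knockdown 0 h library 2 left out), and 1448 and 3098 with the 2 pairs of libraries left out. The 52 over time in control became 85 with scaling, 6 with the replicate block, 11 with the block and scaling, 318 with only the groups compared, 18 to 401 with 1 left out, and 160 and 262 with the pairs left out. The 162 over time in the knockdown became 40 with the replicate block, 56 with the block and scaling, 19 with only the groups compared, 46 to 1572 with 1 left out, and 258 and 424 with the pairs left out. For the difference between the changes over time the 0 genes became 1 with no filter, scaling or either block, 0 to 10 with 1 left out, and 8 and 7 with the pairs left out. The causes were not tested.

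Sign changes were found only in values that were not called. With median-of-ratios scaling the knockdown changes at 0 h became 0.17 for Elf5 and 0.26 for Gata3, the changes over time in the knockdown -0.27 for Sox9, -0.21 for Elf5, -0.31 for Tfap2c and -0.14 for Stat5a, and the differences of those changes -0.27 for Sox9, -0.23 for Elf5 and -0.06 for Gata3. With the replicate block and scaling those differences were -0.35, -0.28 and -0.08, and the other 6 values were the same to 2 decimals. With the replicate block alone the changes over time in control were -0.02 for Sox9 and -0.01 for Elf5. Without knockdown 0 h library 2 and control 36 h library 4, Elf5 had 0.31 at 0 h, the changes over time in the knockdown were -0.01 for Sox9, -0.43 for Elf5, -0.37 for Tfap2c and -0.20 for Stat5a, and the differences -0.02 for Sox9, -0.08 for Elf3 and -0.61 for Elf5. With control 36 h library 3 left out in place of 4, the same 5 values recurred, the changes over time in control were -0.05 for Elf5 and 0.13 for Stat5a, and the differences -0.02 for Trp63, -0.09 for Sox9, -0.05 for Elf3, -0.39 for Elf5, -0.23 for Ehf, -0.12 for Tfap2c and -0.33 for Stat5a. With 1 library left out, Elf5 ranged from -0.58 to 0.31 at 0 h. The changes over time in control ranged from -0.07 to 0.08 for Sox9, -0.08 to 0.18 for Elf5 and -0.51 to 0.13 for Stat5a, those in the knockdown from -0.01 to 0.17 for Sox9, -0.43 to 0.45 for Elf5, -0.40 to 0.23 for Ehf, -0.37 to 0.44 for Tfap2c and -0.20 to 0.57 for Stat5a, and the differences from -0.02 to 0.17 for Sox9, -0.04 to 0.61 for Elf3 and -0.45 to 0.43 for Elf5.

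The labels do not say whether libraries of equal number share a culture or a day. Of 15 pairs with the same number in different groups, 2 had a correlation of their deviations from the group means over 0.1 (median 0.009, range -0.287 to 0.132), against 7 of 39 pairs with different numbers. These deviations also hold shifts of whole libraries, such as that of knockdown 0 h library 2, so the correlations cannot decide whether the numbers pair the libraries. Elf3 kept its call at 0 h with the replicate block, and Ehf (adjusted p = 0.0508), Tfap2c (0.0605) and Sox9 (0.106) did not.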
